A study of Mus musculus with 36 samples.

Results

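The 7 genes described here encode the classical MHC class II molecules of the mouse and the proteins that make them work: H2-Aa and H2-Ab1 (the alpha and beta chains of I-A), H2-Eb1 (the beta chain of I-E), Cd74 (the invariant chain), H2-DMa and H2-DMb1 (the 2 chains of the peptide editor H2-DM) and Ciita, the transactivator of class II promoters. They were chosen by name, and their estimated counts and TPM (a level per transcript length, scaled to the same total in every library) were summed over each gene's Ensembl transcripts in all 36 libraries. All 7 had a value, of 30205 genes summed in all. H2-Aa, H2-Ab1, H2-Eb1, H2-DMa and H2-DMb1 lie in the class II region of chromosome 17, between 34119541 (the start of H2-DMa) and 34316674 (the end of H2-Eb1) in GRCm38, Cd74 is on chromosome 18 and Ciita on chromosome 16 (10480059 to 10528418, plus strand, 19 exons). The study measured total RNA by sequencing in 3 kinds of bone culture from 20-week-old mice that were either wild-type controls (WT) or Mir324-null, with 6 libraries in each of 6 groups. How the libraries of a group relate to mice is not stated in the labels, so the p-values measure the spread between these libraries, which may be technical.

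Marrow flushed from long bones was kept for 3 days in 100 ng/mL M-CSF, the growth factor of macrophages, to give bone marrow macrophages. One set, labelled BMM, then had 30 ng/mL M-CSF alone for 5 days. The other, labelled osteoclasts (OC), had the same M-CSF with 50 ng/mL RANK-L, the cytokine that drives osteoclast formation, for 5 days. The osteoblast cultures (OB) grew out of bone chips over approximately 6 weeks and were then held in osteogenic medium, with β-glycerophosphate and ascorbic acid, for 18 days. The groups are WT BMM, null BMM, WT OC, null OC, WT OB and null OB. Both genotypes had the same media. How the null allele was made is not given in the sources used here. The miRNA itself was not analysed here.

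Class II molecules carry peptides from endocytosed protein to the surface of antigen-presenting cells, where CD4+ T cells read them. The alpha and beta chains assemble with the invariant chain, which blocks the groove and directs the complex to endosomes. There proteases cut the invariant chain down, and H2-DM removes its last fragment and favours stable peptides. CIITA does not bind DNA itself. It is recruited by RFX, CREB and NF-Y proteins on the X and Y boxes of class II promoters, and in most cells its amount sets class II transcription. Macrophages hold little class II until interferon-gamma induces Ciita. Osteoclasts come from the same precursors and are known for bone resorption rather than for antigen presentation.

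Total estimated counts ran from 14118972 to 26347581 per library. The 8 macrophage markers were present in every library, and their summed TPM was 47163 to 57468 in WT BMM, 56286 to 58988 in null BMM, 15569 to 17477 in WT OC and 52959 to 62376 in null OC. The 8 osteoclast markers summed to 30996 to 35343 TPM in WT OC and to 234 to 569 TPM in null OC. They summed to 63.3 to 82.2 TPM in WT BMM and 159 to 203 TPM in null BMM. The 6 libraries labelled null OC therefore lacked most osteoclast RNA, and every value below for null OC is for libraries of that label. The 8 osteoblast markers summed to 18114 to 25724 TPM in WT OB and 30703 to 44263 TPM in null OB. The OB cultures also held macrophage marker RNA (14766 to 18669 TPM in WT, 8597 to 13370 TPM in null) and osteoclast marker RNA (4090 to 5144 TPM in WT, 5339 to 8072 TPM in null), and the cell type that held the class II RNA in them was not tested.

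The promoter table held 4 of the 7 members (H2-Aa, H2-Eb1, H2-DMa and H2-DMb1). Searched on both strands were an 11-base core of the X box, where RFX binds, with free letters at some positions, GATTGG for the Y box, where NF-Y binds, and TGACGTCA for the CREB-type site next to the X box. The last was added after the first results were seen. The windows ran from 250 bases before to 50 bases after each start.

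H2-Aa and H2-Eb1 rose together with RANK-L in WT cells. The stretches from 110 to 30 bases upstream of their starts are shown for that reason, and both hold matches to searched letters. They are 5′ to 3′ on each gene's own strand, from RefSeq on GRCm38.p6, at chr17:34287853-34287933 (minus strand) for H2-Aa and chr17:34305757-34305837 (plus strand) for H2-Eb1. Capitals mark the matches to the searched letters.
H2-Aa: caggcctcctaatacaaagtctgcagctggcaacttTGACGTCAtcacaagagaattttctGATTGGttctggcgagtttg
H2-Eb1: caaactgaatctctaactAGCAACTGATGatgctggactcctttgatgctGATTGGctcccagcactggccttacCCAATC

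H2-Eb1 held the X core 92 bases and the Y box 60 bases upstream of its start, with 21 bases between them, and the Y letters again on the other strand at 35 bases. H2-Aa held TGACGTCA at 74 bases and the Y box at 49 bases, and its window had no match to the X core searched. H2-DMb1, which fell with RANK-L in WT (-0.58 on the log2 scale), held the X core at 95 bases and the Y box at 62 bases, with 22 bases between. Whether these letters bear on the RANK-L response was not tested. Of 2 starts listed for H2-DMa, the first window had no match to any of these letters and the second had the Y letters at 199 bases. The X core was in 4.61% of the 32851 windows in the table, the Y letters in 16.1%, both together in 0.749% and TGACGTCA in 1.79%. Among class II genes outside the 7, H2-Eb2 (21 bases between) and H2-Oa (86 bases between) also had the X core and the Y box, whereas H2-Ob and H2-DMb2 had the Y box alone.

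In WT macrophages the 3 antigen-presenting chains, the invariant chain and Ciita were all low, and all 5 were higher in the set with RANK-L. Cd74 had a median of 29.9 TPM (14.2 to 43.0) in WT BMM and 536 TPM (499 to 645) in WT OC. H2-Aa went from 1.69 TPM (0 to 4.03) to 37.7 TPM (30.6 to 41.0). H2-Ab1 went from 7.23 TPM (5.23 to 11.9) to 63.2 TPM (55.7 to 76.5), and H2-Eb1 from 1.31 TPM (0.25 to 2.15) to 14.3 TPM (11.8 to 16.006). For each of these genes every WT OC library lay above every WT BMM library. Cd74 alone made up 76.4% of the summed TPM of the 7 genes in WT OC, against 21.6% in WT BMM, and the sum rose from 135 ± 16.3 to 718 ± 66.5 TPM (SD, n = 6).

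**Figure D1:**
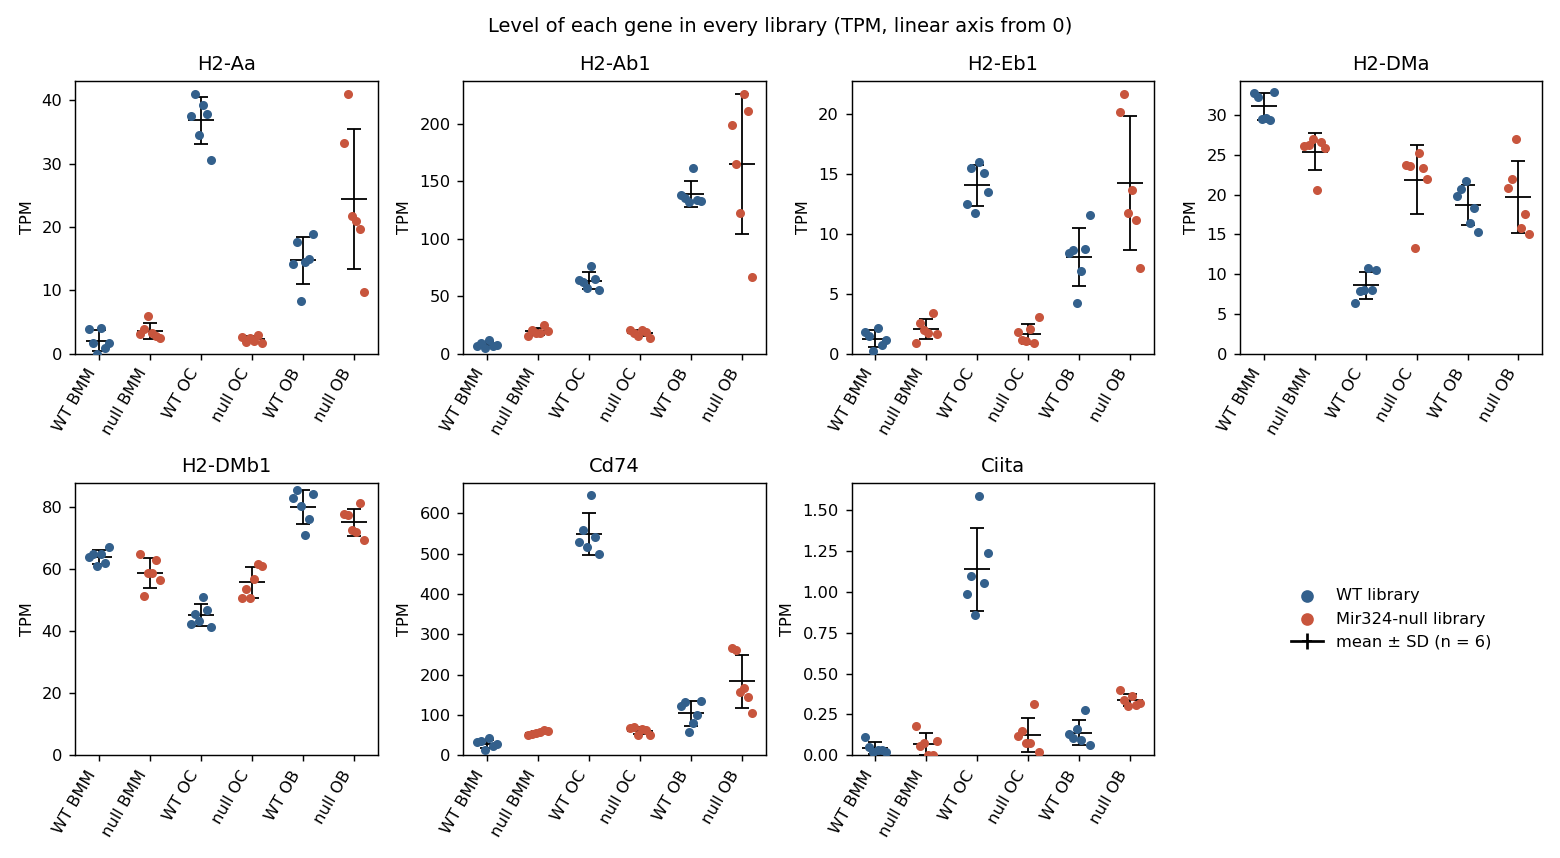
TPM of each of the 7 genes (linear vertical axes from 0) in the 36 libraries, by group on the horizontal axis, with points for libraries and bars for mean ± SD (n = 6). Cd74, H2-Aa and Ciita are highest in WT OC, H2-Ab1 has its highest means in the OB groups, and H2-DMa is lowest in WT OC.

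Ciita was the scarcest of the 7. It had a median of 0.032 TPM (0.018 to 0.11) in WT BMM, which was 1.26 to 7.57 estimated counts per library, and 1.08 TPM (0.86 to 1.59) in WT OC, which was 63.7 to 88.1 estimated counts. Its WT BMM level is thus set by a few reads, while the groups did not overlap. The files list 1 Ciita transcript with 19 exons, so its alternative first exons could not be told apart.

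The 2 chains of H2-DM went the other way. H2-DMa, the alpha chain, had a median of 31.0 TPM (29.4 to 33.0) in WT BMM and 8.003 TPM (6.42 to 10.7) in WT OC. H2-DMb1, the beta chain, had 64.3 TPM (61.0 to 67.0) in WT BMM and 44.4 TPM (41.4 to 51.0) in WT OC. Every WT OC library lay below every WT BMM library for both chains. H2-DMb1 was above the other 6 members in every WT BMM library, while H2-DMa and Cd74 overlapped there.

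These differences were tested with edgeR's quasi-likelihood test on estimated counts, with p-values adjusted by the Benjamini-Hochberg method over all genes tested and a threshold of 0.05. Between WT OC and WT BMM, 60.5% of the 12661 genes tested passed, 30.4% higher and 30.1% lower, and their median log2 fold change was near 0 (-0.003). All 7 members passed, 5 higher and 2 lower, with a median log2 fold change of 3.37. Ciita rose by 4.58 on the log2 scale (SE 0.56, adjusted p = 5.74e-08), H2-Aa by 4.21 (SE 0.36, adjusted p = 7.88e-11) and Cd74 by 4.09 (SE 0.17, adjusted p = 8.73e-17). H2-Eb1 rose by 3.37 (SE 0.35) and H2-Ab1 by 2.88 (SE 0.15), the smallest rise among the presenting chains. H2-DMa fell by 1.92 (SE 0.11, adjusted p = 1.16e-14) and H2-DMb1 fell by 0.58 (SE 0.06, adjusted p = 7.41e-09) on the log2 scale. Leaving out any 1 of the 24 libraries kept the number of members past the threshold at 7. In bulk cultures a change in the share of cells of a type and a change in RNA per cell cannot be told apart.

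Marker RNA of other cell types that present antigen was small in the macrophage cultures. The 10 dendritic cell markers summed to 7.30 to 10.6 TPM in WT BMM and 8.16 to 13.2 TPM in WT OC, and Cd209a, Ccr7 and Dpp4 were at or under 3 counts in every library of both groups. Of the 5 tested 2 rose (Zbtb46 by 2.67 and Fscn1 by 2.29 on the log2 scale) and 1 fell (Batf3, -2.29). Xcr1 (0.05) and Itgax (-0.09) did not pass. Over all genes tested 30.4% rose and 30.1% fell. Zbtb46, a transcription factor of classical dendritic cells, was at 0.28 TPM (mean) in WT BMM and 2.26 TPM in WT OC. The 7 B cell markers summed to 2.38 to 6.85 TPM in WT BMM and 1.33 to 2.73 TPM in WT OC, with Cd79a, Cd79b and Pax5 at or under 3 counts throughout. The 7 T cell markers summed to 2.79 to 4.68 TPM in WT BMM and 6.43 to 11.5 TPM in WT OC. In that list Trac, the T cell receptor alpha constant gene, was at 0 in WT BMM and at 3.87 to 7.67 TPM in WT OC, whereas Cd3e and Cd3g were at or under 3 counts in both groups. The part of these markers in the class II result was not tested.

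In null cultures RANK-L left none of the 7 genes past the threshold. Cd74 had a median of 56.6 TPM (51.1 to 61.6) in null BMM and 64.0 TPM (49.3 to 70.4) in null OC. H2-Aa had 3.16 TPM (2.47 to 5.95) and 2.25 TPM (1.73 to 2.97), H2-Ab1 19.0 TPM (15.6 to 24.9) and 18.3 TPM (13.998 to 20.3). The ranges of null BMM and null OC overlapped for all 7 genes.

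Between null OC and null BMM 12.9% of the genes tested passed (6.78% higher, 6.07% lower), and 0 of 7 members did with edgeR. An unadjusted p under 0.05 was reached by 2 members. These were H2-Aa, at -0.76 on the log2 scale (edgeR, adjusted p = 0.158), and H2-DMa, at -0.26 (edgeR, adjusted p = 0.0907). DESeq2 also called 0 members and limma-voom 0. Without null OC replicate 4 the fit called H2-DMa (-0.33, adjusted p = 0.0492). Ciita had a log2 fold change of 0.83 with an SE of 0.58, and Cd74 of 0.06 with an SE of 0.16. The number of all genes called in this comparison, 1628, itself moved between 810 and 2143 when 1 library was left out. It was 840 without null BMM replicate 2, 810 without replicate 3, 948 without replicate 4 and 1046 without null OC replicate 3.

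The difference between the genotypes in their response to RANK-L was tested directly, as an interaction. Here 51.4% of the genes tested passed (25.3% higher, 26.1% lower), and all 7 members passed, 5 lower in the null and 2 higher. The interaction was -4.97 for H2-Aa (SE 0.50, adjusted p = 4.52e-09), -4.03 for Cd74 (SE 0.23, adjusted p = 8.47e-14), -3.75 for Ciita (SE 0.84, adjusted p = 4.88e-04), -3.70 for H2-Eb1 (SE 0.49) and -3.07 for H2-Ab1 (SE 0.21) on the log2 scale. It was 1.65 for H2-DMa (SE 0.15, adjusted p = 4.44e-10) and 0.47 for H2-DMb1 (SE 0.09, adjusted p = 7.48e-05). The genes that rose with RANK-L in WT were thus the ones with a negative interaction, and the H2-DM chains that fell in WT had a positive one. Over all genes tested the median interaction was -0.01.

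**Figure D2:**
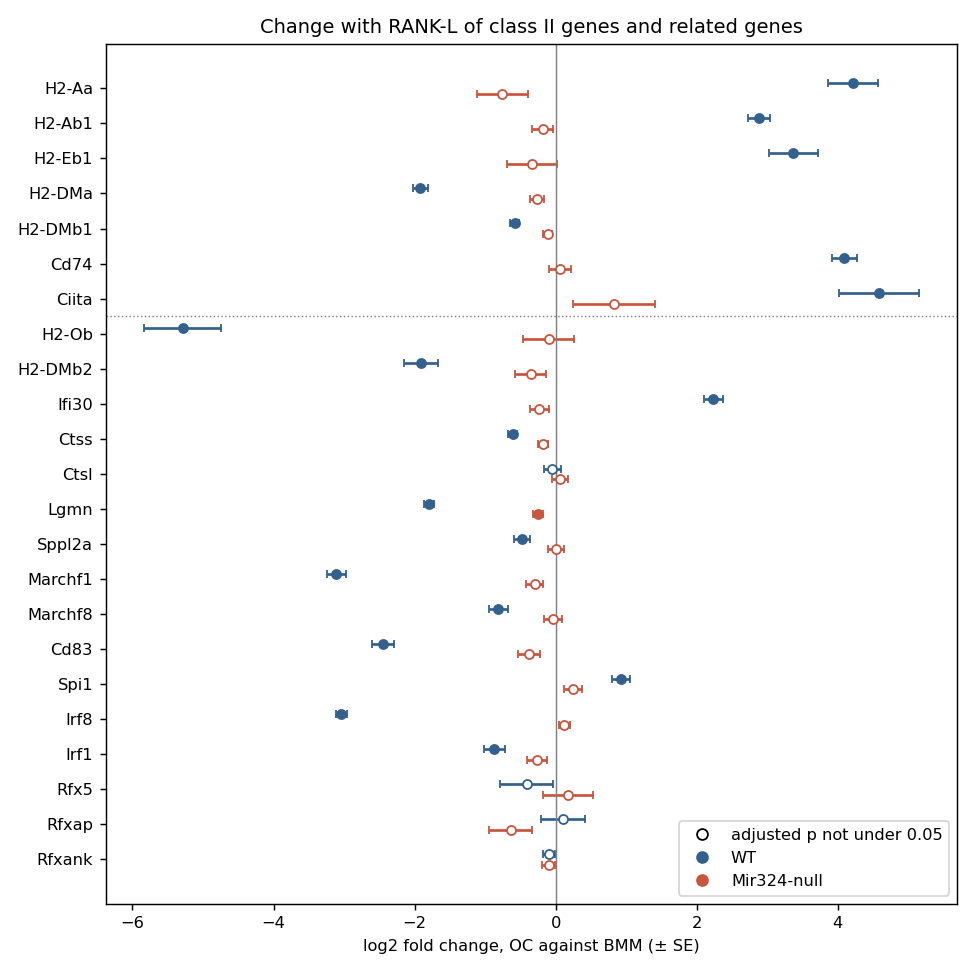
Log2 fold change of OC against BMM (horizontal axis, ± SE) in WT (blue) and Mir324-null cultures (red), for the 7 genes above the dotted line and related genes below it, with open points where the adjusted p was not under 0.05. The 5 genes Ciita, H2-Aa, Cd74, H2-Eb1 and H2-Ab1 lie at 2.88 to 4.58 in WT, and all 7 are open in the null.

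Between the OC cultures alone the same 5 genes were lower in the null and the same 2 higher. Null OC held 61.0 ± 8.91 TPM of Cd74 (SD, n = 6) against 549 ± 51.4 TPM in WT OC, and 0.12 ± 0.10 TPM of Ciita against 1.14 ± 0.25 TPM. H2-DMa was at 23.5 TPM (median, 13.3 to 25.3) in null OC against 8.003 TPM (6.42 to 10.7) in WT OC. None of the 7 genes had overlapping ranges between the OC groups in CPM, which are counts scaled to library size, while in TPM those of H2-DMb1 overlapped (41.4 to 51.0 in WT OC, 50.5 to 61.6 in null OC). The share of all genes with ranges apart was not counted for this or any other comparison. By the test, 65.6% of all genes differed between the OC groups.

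Between null OC and WT OC 65.6% of the 12121 genes tested passed, 32.4% higher and 33.1% lower in the null. All 7 members passed, 5 lower and 2 higher, with a median log2 fold change of -2.85. H2-Aa fell by 3.85 (SE 0.14, adjusted p = 2.93e-13), Ciita fell by 3.01 (SE 0.36, adjusted p = 1.38e-06), Cd74 fell by 2.97 (SE 0.08, adjusted p = 1.62e-14), H2-Eb1 fell by 2.85 (SE 0.25) and H2-Ab1 fell by 1.62 (SE 0.10) on the log2 scale. H2-DMa was higher by 1.51 (SE 0.13, adjusted p = 2.94e-08) and H2-DMb1 by 0.47 (SE 0.07, adjusted p = 2.95e-05). This comparison shares its libraries with the interaction above, and the osteoclast markers, which were 8 of 8 lower in null OC, moved with it. Their part in the class II difference was not tested.

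In BMM, the separate set held for the same 5 days without RANK-L, the presenting chains and Cd74 had higher medians in the null. Of these only H2-Ab1 and Cd74 passed the test given below. H2-Ab1 had a median of 19.0 TPM (15.6 to 24.9) in null BMM against 7.23 TPM (5.23 to 11.9) in WT BMM. Cd74 had 56.6 TPM (51.1 to 61.6) against 29.9 TPM (14.2 to 43.0). For both genes every null library lay above every WT library. H2-Aa was at 3.16 TPM (2.47 to 5.95) against 1.69 TPM (0 to 4.03) and H2-Eb1 at 1.87 TPM (0.91 to 3.38) against 1.31 TPM (0.25 to 2.15), with overlapping ranges.

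Of the 11925 genes tested in BMM 52.3% passed (27.0% higher in the null, 25.4% lower). Among 6 members tested, 2 passed, both higher: H2-Ab1 by 1.46 on the log2 scale (SE 0.18, adjusted p = 5.01e-06) and Cd74 by 1.07 (SE 0.20, adjusted p = 4.75e-04). H2-Aa stood at 1.12 (SE 0.51, adjusted p = 0.0804) and H2-Eb1 at 0.87 (SE 0.41, adjusted p = 0.0849), neither past the threshold. Without WT BMM replicate 4, which had the highest level of each in its group, both passed (1.42, adjusted p = 0.0414, and 1.08, adjusted p = 0.0478) and the number of members called was 4. H2-Eb1 also passed without null BMM replicate 1 (1.03, adjusted p = 0.0373), a fit of all 36 libraries called 4 members, and DESeq2 called H2-Aa (1.12, adjusted p = 0.0487).

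Ciita did not pass the filter on low counts in BMM. Its estimated counts were 1.26 to 7.57 in WT BMM and 0 to 12.3 in null BMM, and without the filter its log2 fold change was 0.74 (SE 0.80, adjusted p = 0.493). A difference in the transactivator between the BMM groups was not detectable at this depth. The H2-DM chains did not pass, with -0.13 (SE 0.08, adjusted p = 0.208) for H2-DMa and 0.01 (SE 0.06) for H2-DMb1. An offset for length and GC content made the H2-DMa difference a call (-0.23, adjusted p = 0.0166). On the TPM scale, which was not tested, H2-DMa was 31.1 ± 1.74 in WT BMM and 25.4 ± 2.37 in null BMM with ranges that did not overlap.

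Beside the BMM difference, the 8 macrophage markers had 3 higher and 4 lower in null BMM, and the 8 neutrophil markers summed to 0.74 to 2.11 TPM in WT BMM and 43.3 to 105 TPM in null BMM, nearly all of it S100a8. Ly6g, Elane and Mpo were at or under 3 counts in every library of both groups. The B cell markers summed to 3.45 to 7.23 TPM in null BMM against 2.38 to 6.85 TPM in WT BMM, with Pax5 at or under 3 counts. Of the 2 B cell markers tested 1 was higher in null BMM, Cd79b, a chain of the B cell receptor complex, at 14 to 55 estimated counts against 0 to 2 in WT BMM. The dendritic cell markers summed to 6.24 to 11.1 TPM against 7.30 to 10.6 TPM. Of the 5 tested 3 were higher in null BMM (Fscn1 by 4.05, Batf3 by 0.76 and Xcr1 by 0.73 on the log2 scale) and 1 was lower (Itgax, -2.20). Over all genes tested 27.0% were higher in null BMM and 25.4% lower. The part of these markers in the class II difference was not tested.

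**Figure D3:**
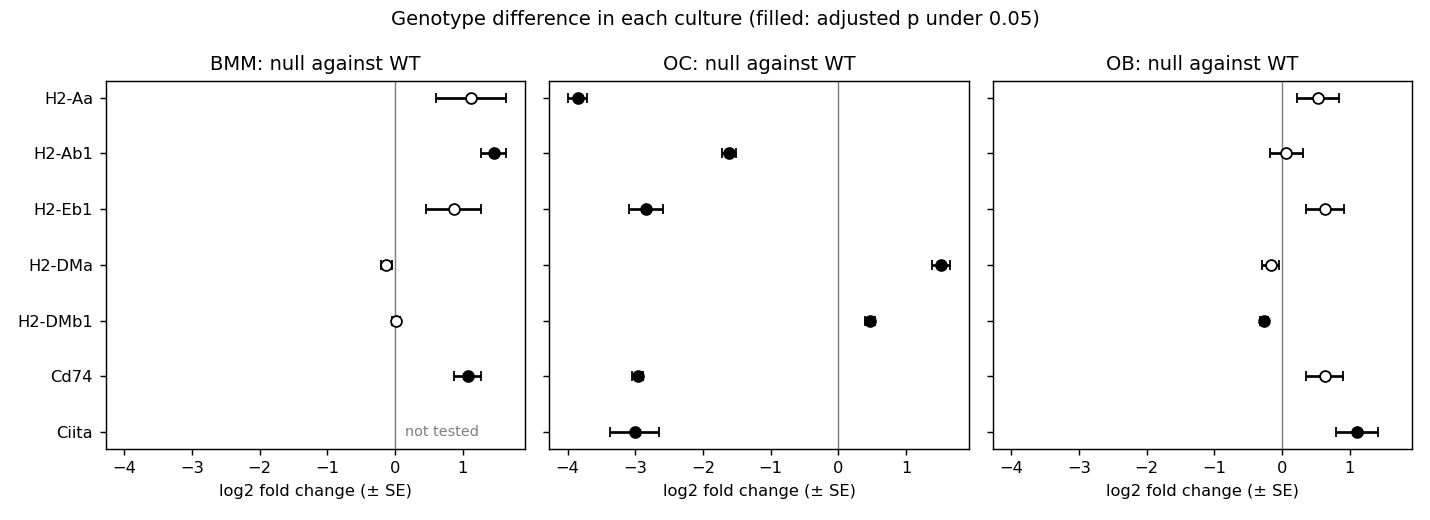
Log2 fold change of Mir324-null against WT (horizontal axis, ± SE) for the 7 genes in BMM, OC and OB cultures, filled where the adjusted p was under 0.05. All 7 are filled in OC, with 5 to the left of 0, whereas H2-Ab1 and Cd74 are filled to the right of 0 in BMM.

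The mean level of H2-Ab1 was higher in the OB groups than in the other groups. WT OB had a median of 135 TPM of H2-Ab1 (132 to 161), 111 TPM of Cd74 (57.7 to 134), 14.8 TPM of H2-Aa (8.28 to 18.9) and 8.51 TPM of H2-Eb1 (4.22 to 11.6). H2-DMb1 was at 81.5 TPM (71.0 to 85.5) and H2-DMa at 19.1 TPM (15.3 to 21.7). Ciita was at 0.12 TPM (0.064 to 0.28), or 4.49 to 17.6 estimated counts. H2-Ab1 was thus above WT OC in every WT OB library, and H2-Aa, Cd74 and Ciita were below it in every one.

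Against WT BMM, where 76.8% of the 14268 genes tested passed (41.5% higher, 35.3% lower), all 7 members passed in WT OB, 6 higher. H2-Ab1 was higher by 4.11 on the log2 scale (SE 0.21, adjusted p = 8.37e-19), H2-Aa by 2.99 (SE 0.37), H2-Eb1 by 2.66 (SE 0.34) and Cd74 by 1.81 (SE 0.22), and H2-DMa fell by 0.66 (SE 0.12). Ciita was higher by 1.65 (SE 0.57, adjusted p = 0.00902) with overlapping ranges, and H2-DMb1 by 0.32 (SE 0.06), a call that was lost once length and GC content were offset (0.11, adjusted p = 0.0855).

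Against WT OC, where 77.9% passed (41.3% higher, 36.7% lower), WT OB was higher in H2-DMa (1.25, SE 0.12), H2-Ab1 (1.23, SE 0.18) and H2-DMb1 (0.89, SE 0.06) and lower in Ciita (-2.94, SE 0.44), Cd74 (-2.28, SE 0.21), H2-Aa (-1.23, SE 0.30) and H2-Eb1 (-0.71, SE 0.29, adjusted p = 0.0256). The H2-Eb1 call was lost without WT OB replicate 3 (-0.57, adjusted p = 0.0776) or replicate 4 (-0.67, adjusted p = 0.0507). The cultures differ in source, medium and time, which cannot be told apart from cell type.

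Within null OB the libraries spread widely: Cd74 ran from 104 to 266 TPM with a median of 163, H2-Ab1 from 66.7 to 226 TPM with a median of 182, H2-Aa from 9.80 to 41.0 TPM with a median of 21.3 and H2-Eb1 from 7.15 to 21.7 TPM with a median of 12.7. Null OB replicate 6 was the lowest library of its group for all of these, and for both H2-DM chains. WT OB replicate 3 was the lowest of its group for the 3 chains and Cd74. The ranges of the genotypes overlapped for these 4 genes.

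Of the 13607 genes tested in OB 32.5% passed (15.5% higher in the null, 16.9% lower), and 2 of 7 members did. Ciita was higher, at 0.33 TPM (median, 0.30 to 0.40) in null OB against 0.12 TPM (0.064 to 0.28) in WT OB. On the log2 scale it was higher by 1.11 (SE 0.31, adjusted p = 0.0125). Its TPM ranges did not overlap, while its CPM did (0.93 to 1.22 in null OB, 0.20 to 1.01 in WT OB). The call was lost after an offset for length and GC content (0.87, adjusted p = 0.0773) and in a fit of all 36 libraries (1.11, adjusted p = 0.0642). H2-DMb1 was lower (-0.26, SE 0.06, adjusted p = 0.00545), a call that was lost after the same offset (-0.07, adjusted p = 0.512).

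The other members of the set did not pass in OB. Cd74 stood at 0.63 on the log2 scale (SE 0.27, adjusted p = 0.0960), H2-Eb1 at 0.63 (SE 0.28, adjusted p = 0.0987) and H2-Aa at 0.54 (SE 0.31, adjusted p = 0.210). Without null OB replicate 6 all 3 passed (0.76, 0.78 and 0.70, adjusted p = 0.0400, 0.0236 and 0.0404) and 5 members were called, and DESeq2 called 4 members on all libraries. Cd74 also passed with limma-voom (0.79, adjusted p = 0.0209), with the length and GC offset (0.85, adjusted p = 0.0440) and in the fit of all 36 libraries (0.64, adjusted p = 0.0212), and H2-Eb1 with that offset (0.87, adjusted p = 0.0471). H2-Ab1 (0.07, SE 0.25) and H2-DMa (-0.17, SE 0.13) had no call in any of these fits. Beside this, macrophage markers were lower in null OB (6 of 8 called), osteoclast markers higher (3 of 8) and dendritic cell markers summed to 226 to 273 TPM against 161 to 201 TPM, of which Fscn1, an actin-bundling protein that other cells also make, gave a mean of 240 against 172 TPM. Of the 5 dendritic cell markers tested 4 were higher in null OB and 0 lower, with Batf3 at 0.96, Zbtb46 at 0.66, Itgax at 0.60 and Fscn1 at 0.31 on the log2 scale. Over all genes tested 15.5% were higher in null OB and 16.9% lower. Flt3, Clec9a, Cd209a and Ccr7 were at or under 3 counts in every null OB library. The part of these markers in the OB values was not tested.

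The genotype difference in OB was also set against those in the other cultures. Against OC, where 55.2% of genes differed (27.8% higher, 27.4% lower), all 7 members differed, 5 with a higher and 2 with a lower genotype difference in OB. Against BMM, where 45.9% differed (21.6% higher, 24.3% lower), 2 members did: H2-Ab1 (-1.38, SE 0.27, adjusted p = 9.24e-05) and H2-DMb1 (-0.26, SE 0.09, adjusted p = 0.0142). The genotype difference of H2-Ab1 was thus smaller in OB than in BMM, whereas for Cd74 the difference between these cultures did not pass (-0.43, SE 0.30, adjusted p = 0.249). These comparisons share libraries with those above.

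The order of the 6 groups differed between the genes. In TPM, H2-Aa, Cd74 and Ciita were highest in WT OC, although H2-Aa overlapped there with null OB, the next group. H2-Ab1 had its highest means in null OB and WT OB, which overlapped. WT OC (63.4 ± 7.44 TPM) came next, below every WT OB library, while null OB replicate 6 at 66.7 TPM lay inside the WT OC range. H2-Eb1 had similar means in null OB (14.3 ± 5.60 TPM) and WT OC (14.1 ± 1.72 TPM), and in CPM the order of these was the other way (8.66 and 9.09). H2-DMa had its order nearly inverted, with WT BMM first and WT OC last, each apart from its neighbour. H2-DMb1 ran from 45.0 ± 3.51 TPM in WT OC to 79.9 ± 5.47 TPM in WT OB. WT BMM was the lowest group for H2-Aa, H2-Ab1, H2-Eb1, Cd74 and Ciita, apart from its neighbour for H2-Ab1 and Cd74 and overlapping it for the other 3.

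Partner chains did not keep a fixed ratio. The I-A beta chain gene H2-Ab1 exceeded its alpha chain partner H2-Aa in TPM 1.72 ± 0.14 times (SD, n = 6) in WT OC, 7.99 ± 1.67 times in null OC and 10.1 ± 3.24 times in WT OB. The range in WT OC, 1.53 to 1.95, lay below that in each of the null OC (6.01 to 10.3) and WT OB (7.04 to 15.99) groups. In WT BMM the ratio had a mean of 4.43 ± 2.24 over the 5 libraries in which H2-Aa was above 0. Its range there, 1.76 to 7.61, overlapped that in WT OC. H2-DMb1 exceeded H2-DMa 2.05 ± 0.08 times in WT BMM, 5.38 ± 0.94 times in WT OC and 2.64 ± 0.62 times in null OC. Cd74 exceeded H2-Ab1 8.68 ± 0.35 times in WT OC and 3.68 ± 0.67 times in WT BMM. The mean of this ratio was 0.76 ± 0.24 in WT OB (0.44 to 1.01) and 1.20 ± 0.39 in null OB (0.69 to 1.58). These ratios are descriptions with no test. H2-DMb1 and H2-DMb2 are near-identical neighbours, so how their reads were shared is uncertain.

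**Figure D4:**
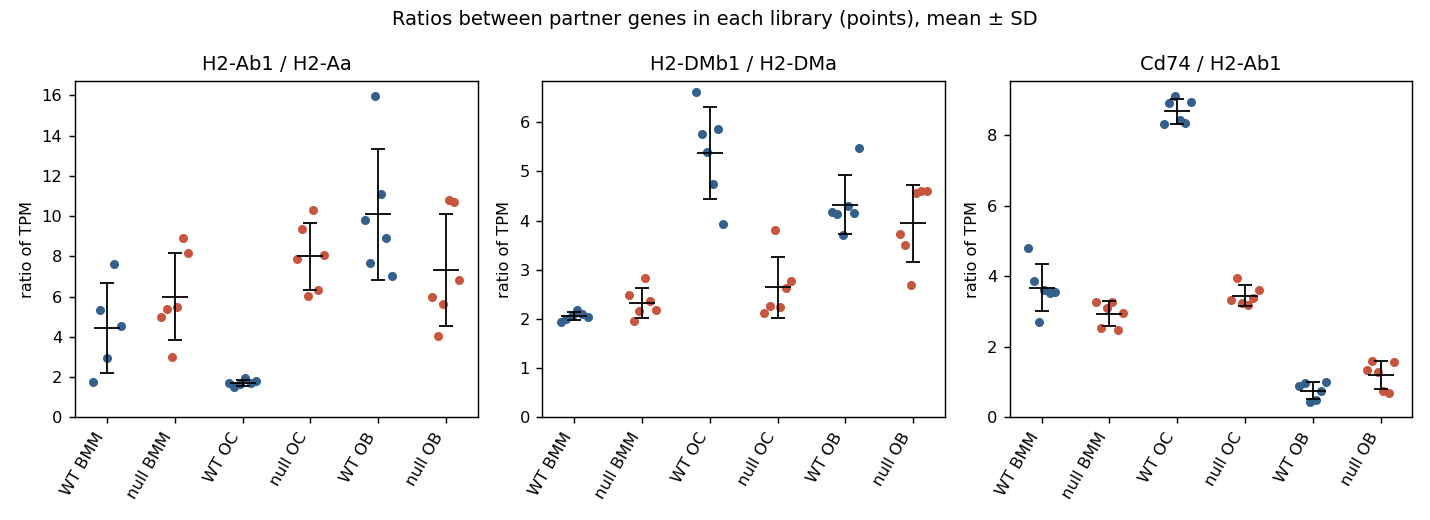
Ratio of TPM between partner genes (vertical axes from 0) in each library by group, with mean ± SD. By mean, H2-Ab1/H2-Aa is lowest in WT OC at 1.72, where H2-DMb1/H2-DMa and Cd74/H2-Ab1 are highest at 5.38 and 8.68.

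At the level of transcripts, Cd74 was mostly its short form, Cd74-201 with 8 exons. The long form Cd74-202, with 9 exons, adds a domain that binds a cathepsin, and it took 11.8% ± 0.49 of Cd74 TPM in WT OC (11.2 to 12.3) and 19.9% ± 1.64 in WT OB (17.7 to 22.6). In null OC it took 10.8% ± 2.87 and in null OB 19.8% ± 3.06. The shares in both OB groups lay above those in every OC library. H2-Ab1, H2-Eb1 and Ciita came from 1 transcript each, at 99.3% or more of the gene's mean share in every group, and H2-DMa had 19.9% to 29.5% of its TPM in a retained-intron transcript. Estimated counts share reads between transcripts, so these shares are uncertain.

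The other class II genes were scarce. H2-Eb2 had a mean of at most 0.24 TPM and H2-Oa of at most 1.25 TPM in any group. For the alpha chain of I-E, the partner of H2-Eb1, H2-Ea-ps was listed at 0 throughout and H2-Ea had no value. Whether H2-Eb1 RNA gave an I-E molecule was not measured. H2-Ob, the beta chain of H2-DO, which restrains H2-DM, had 20 to 42 estimated counts in WT BMM and 0 to 2 in WT OC, against 8 to 24 in null OC. Of the 3 genes of this list tested in the macrophage fit, 2 fell with RANK-L in WT (H2-Ob and H2-DMb2), where 30.1% of all genes fell, and 0 passed in the null, where 12.9% did. H2-DMb2 fell by 1.91 (SE 0.24) on the log2 scale in WT and was higher by 1.41 (SE 0.27) in null OC than in WT OC. H2-Ob and H2-DMb2 thus moved in the direction of H2-DMa and not of the presenting chains.

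Among the 5 genes of peptide processing, 1 rose and 3 fell with RANK-L in WT, and 0 rose and 1 fell in the null. Over all genes 30.4% rose and 30.1% fell in WT, and 12.9% passed in the null. The gene that rose was Ifi30, which encodes the thiol reductase GILT that opens disulfide bonds of antigens. It was at 60.2 ± 2.84 TPM in WT BMM, 307 ± 10.9 TPM in WT OC and 45.9 ± 7.24 TPM in null OC. Its log2 fold change was 2.23 in WT (SE 0.14, adjusted p = 6.23e-14), and its interaction was -2.46 (SE 0.19, adjusted p = 2.03e-11). Ctss, the cathepsin that trims the invariant chain, fell by 0.61 (SE 0.07), and Lgmn, an endosomal asparagine protease, fell by 1.80 (SE 0.07). Lgmn was also lower in null BMM than in WT BMM by -1.60 (SE 0.07) on the log2 scale.

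All 3 genes of class II turnover fell with RANK-L in WT, where 30.1% of all genes fell, and 0 passed in the null, where 12.9% did. Marchf1, the ubiquitin ligase that removes class II from the surface, was at 25.0 ± 3.02 TPM in WT BMM, 3.10 ± 0.30 TPM in WT OC and 31.3 ± 8.22 TPM in null OC. It fell by 3.11 (SE 0.14) on the log2 scale in WT, and the interaction was 2.81 (SE 0.18). Cd83, which protects class II from that ligase, fell by 2.45 (SE 0.15) in WT. It was lower in null BMM than in WT BMM by -2.43 (SE 0.10), at 17.2 ± 2.35 against 102 ± 12.8 TPM. Of the 5 co-stimulation genes tested, 2 rose and 3 fell in WT, against 30.4% and 30.1% of all genes, with Cd80 higher by 0.83 (SE 0.12) and Cd40 lower (-1.37, SE 0.09). In the null 1 rose and 0 fell, against 6.78% and 6.07% of all genes. This was Cd80 (0.50, SE 0.12, edgeR adjusted p = 0.00835), and its interaction did not pass (-0.33, SE 0.17, edgeR adjusted p = 0.106).

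The factors that act on class II promoters moved less than Ciita. Of 7 such genes, 2 rose and 2 fell with RANK-L in WT, 0 rose and 1 fell in the null, shares near those over all genes (60.5% and 12.9%). The median log2 fold change in WT was -0.10. Rfxank, which encodes an RFX subunit, was lower in null OC than in WT OC by -0.40 (SE 0.10) on the log2 scale, and Rfx5, which encodes another, was higher by 1.34 (SE 0.35) with overlapping ranges.

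Of 10 tested regulators of Ciita, 4 rose and 6 fell in WT and 0 passed in the null, against 60.5% and 12.9% of all genes. Spi1, which encodes the myeloid factor PU.1, rose by 0.93 (SE 0.13) in WT. Irf8, which acts at the myeloid Ciita promoter, was at 203 ± 11.9 TPM in WT BMM, 26.4 ± 2.80 TPM in WT OC and 140 ± 20.97 TPM in null OC. It fell by 3.04 (SE 0.08) on the log2 scale in WT, with an interaction of 3.16 (SE 0.11, adjusted p = 4.44e-19). Irf1, an interferon-induced factor that acts on Ciita, fell by 0.87 (SE 0.14) in WT. Prdm1, also in the list, rose by 4.39 (SE 0.31) in WT, with an interaction of -4.26 (SE 0.42). Irf8 and Irf1 were thus lower in WT OC, where Ciita was higher, whereas Spi1 and Prdm1 were higher there. The list was counted without regard to whether a gene raises or lowers Ciita. Moving with Ciita is therefore no sign of the role of a gene, and the part of these genes in the Ciita level was not tested.

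Genes that interferons induce were counted beside the members. Of 10 tested genes of the type II interferon list, 3 rose and 5 fell with RANK-L in WT, and of 12 genes of the type I list 0 rose and 10 fell, where 30.4% of all genes rose and 30.1% fell. In null BMM, where H2-Ab1 and Cd74 were higher, 0 of 8 type II genes rose and 5 fell, and 12 of 12 type I genes fell, where 27.0% of all genes were higher and 25.4% lower. The median of the type I genes there was -1.42 on the log2 scale, against 0.02 over all genes tested. Between null OC and WT OC 2 of 8 type II genes were higher and 4 lower, against 32.4% and 33.1% of all genes. In WT OB against WT BMM 6 of 10 type II genes were higher and 1 lower, and 3 of 12 type I genes were higher and 6 lower. Over all genes 41.5% were higher there and 35.3% lower. Against WT OC 7 type II genes were higher and 1 lower in WT OB, as were 7 and 1 of the type I genes. The shares of all genes there were 41.3% and 36.7%.

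Across the 36 libraries the log2 CPM of H2-Aa and H2-Eb1 had a Pearson correlation of 0.95, those of H2-Aa and Cd74 0.91, and those of Cd74 and Ciita 0.85. H2-DMa ran against them, with -0.88 for Cd74 and -0.83 for Ciita, and with 0.62 for its partner H2-DMb1. The 36 points fall into 6 groups that share cultures, so these values describe mainly the order of the groups and carry no p. Among 12631 genes with a mean of at least 1 CPM, the patterns most like the mean of the 6 members other than Ciita were those of Fam131a (0.91), Herpud1 (0.91), Htra1 (0.90), Dnm1 (0.90), Gm10499 (0.90), Nupr1 (0.90), Ldhb (0.89) and Hist1h2bc (0.89). That mean joins members that ran against each other, such as H2-DMa and H2-Aa (-0.74) or H2-DMb1 and Cd74 (-0.52). It need not follow any single member. Each of the genes found had a higher mean TPM in WT OB than in WT OC, unlike Cd74 and H2-Aa. The 5 most like Ciita were Dgki (0.89), Ckmt1 (0.89), Grk3 (0.88), Adgre5 (0.88) and Scin (0.87). Scin, which encodes an actin-severing protein, had a mean of 77.4 TPM in WT OC and 0.32 TPM in null OC.

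The null mice lack Mir324, so the seeds of its products were searched in the members. The mature sequences are shown, from RefSeq on GRCm38.p6, because a match to bases 2 to 8 is the usual first test for a target. They lie at chr11:70012060-70012082 and chr11:70012095-70012114 on the plus strand, and capitals mark the seed.
mmu-miR-324-5p: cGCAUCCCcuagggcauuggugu
mmu-miR-324-3p: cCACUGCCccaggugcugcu
The match to the 5p seed, GGGATGC, was present once in the longest annotated 3′ UTR of H2-DMa and once in that of Cd74 and in 0 of the other 5 members, against 7.39% of 21027 genes. The H2-DMa UTR searched, at 1862 bases, is longer than the whole protein-coding H2-DMa transcript that was quantified (1658 bases). It thus belongs to another annotated transcript, and whether the quantified one holds the match was not checked. The match to the 3p seed, GGCAGTG, was in 0 of 7 members, against 12.7% of genes. H2-DMa was higher and Cd74 lower in null OC than in WT OC. In BMM Cd74 was higher in the null (1.07 on the log2 scale), and H2-DMa had no call (-0.13). In OB neither had a call with edgeR (0.63 for Cd74, -0.17 for H2-DMa). A match is a description of the letters, and binding was not measured.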

How the data were processed

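Total RNA libraries from 36 cultures (6 groups of 6) were analysed. The submitters' processing notes name kallisto, DESeq2 and the human build GRCh38, with no roles or versions. The transcript identifiers are mouse Ensembl, and 97.5% of 88198 matched GENCODE M21 (GRCm38). Unmatched transcripts held 0.63% to 0.97% of counts. The authors deposited estimated counts and TPM per transcript. Estimated counts were summed per gene and rounded, and TPM were summed for levels. No batch is given in the labels.

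Tests used edgeR 4.0.16 in R 4.3.3 (filterByExpr, TMM scaling, robust quasi-likelihood F test), with Benjamini-Hochberg adjustment over all genes tested and a threshold of 0.05. Genotype was tested within each culture (12 libraries), RANK-L and its interaction in 24, and OB comparisons in 36. SE is the absolute log2 fold change divided by the root of F. The fits were tested on simulated data. Alternatives were RLE scaling, 2 filters, DESeq2 1.42.0, limma 3.58.1 (voom), length and GC content offsets, a replicate block, all 36 libraries, CPM in place of TPM for the levels, and leaving out each library.

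The members and gene lists were chosen with earlier results of these data known. Named genes were the 7 members, list genes with a stated role, and the 8 and 5 genes of highest correlation. Marker genes named beside a result, and Trac, Fscn1, Zbtb46, S100a8 and Prdm1, were picked after their values were seen. H2-Ea and Gbp6 had no value. Same-numbered libraries were not treated as pairs. Correlations used log2 CPM with a prior count of 2. Some list genes are not reported here by name.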

Additional observations from a re-analysis of the deposited data

Results flagged for a closer look

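All 7 members differed between the genotypes in their response to RANK-L by the interaction test of edgeR, where 51.4% of all genes tested did. The interaction on the log2 scale was -4.97 for H2-Aa, -3.07 for H2-Ab1, -3.70 for H2-Eb1, 1.65 for H2-DMa, 0.47 for H2-DMb1, -4.03 for Cd74 and -3.75 for Ciita. All 7 also differed in the genotype difference between OB and OC, where 55.2% of all genes tested did. The values were 4.40 for H2-Aa, 1.70 for H2-Ab1, 3.50 for H2-Eb1, -1.66 for H2-DMa, -0.72 for H2-DMb1, 3.61 for Cd74 and 4.13 for Ciita. Between OB and BMM, where 45.9% of all genes tested differed, the genotype difference of H2-Ab1 differed by -1.38 and that of H2-DMb1 by -0.26.

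In 4 of the 42 sets of 6 libraries (7 genes in 6 groups) 1 library stood apart from the others by Dixon's test, where chance gives about 1 in 20. H2-Ab1 was at 161 TPM in WT OB replicate 4, the highest of its group. H2-DMa was at 20.7 TPM in null BMM replicate 4 and at 13.3 TPM in null OC replicate 3, the lowest of their groups. Ciita was at 0.11 TPM in WT BMM replicate 1, the highest of its group.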

How the results depend on the processing

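Of 2414 values of the members under alternatives, 2356 kept their direction and call, 31 reversed, 9 lost and 18 gained a call. All 7 members passed for the RANK-L response in WT, the interaction and the genotype difference in OC under every alternative run. Offsets for length and GC content gave 2023 genes for genotype in OB (4420 without), and 1758 genes and 0 members with the replicate block, and 1 member, with or without the block, for OB against BMM genotype. The same offsets turned H2-DMb1 in BMM to -0.10 (-0.097, with the block -0.099) and H2-DMa in OB to 0.0034. For OB against BMM genotype they gave H2-Eb1 0.14 (0.11 with the block), H2-DMa 0.24 (0.24) and H2-DMb1 0.022 (0.021), and H2-DMa was 0.072 with limma-voom and 0.046 with average length. DESeq2 called 4 members in OB, and a fit of all 36 libraries 4 in BMM. For RANK-L in the null, limma-voom called 1037 genes, as did the offsets with the block. Same-numbered libraries did not deviate together (correlations of -0.13 to 0.10). With the replicate block H2-Ab1 in OB was -0.033, and 68 of 69 member values kept call and direction. The causes were not tested.

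Leaving out 1 library, members called ranged from 2 to 4 in BMM, 2 to 5 in OB and 0 to 1 for RANK-L in the null, where genes called ranged from 810 to 2143. H2-DMb1 in BMM ranged from -0.029 to 0.036 and H2-Ab1 in OB from -0.031 to 0.23. For OB against BMM genotype H2-Eb1 ranged from -0.41 to 0.0066, H2-DMa from -0.088 to 0.047 and Ciita from -0.29 to 0.91. Depth limits Ciita, at 0 to 12.3 estimated counts in BMM.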
